A study of Mus musculus with 6 samples.

Results

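The tricarboxylic acid cycle (TCA cycle) is the ring of mitochondrial reactions that oxidises acetyl groups to carbon dioxide. Its electrons pass to the respiratory chain as NADH and reduced flavin, and its intermediates leave for the synthesis of aspartate, lipids and haem. Regulatory T cells (Treg) hold immune responses in check under the transcription factor Foxp3 and are known for their use of mitochondrial oxidation. The expression of 9 genes of the cycle was examined: Cs, Idh3a, Idh3g, Idh2, Ogdh, Dlst, Suclg1, Mdh2 and Mdh1. They were found as every probe set whose single annotated symbol was one of these names, which gave 19 of 22626 probe sets and 9 of 12393 genes. Cs, Idh3a, Idh3g, Ogdh, Dlst, Suclg1 and Mdh2 encode enzymes or subunits of the ring itself. Idh2 is the NADP-linked isocitrate dehydrogenase of mitochondria, and Mdh1 is the cytosolic partner of Mdh2.

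RNA came from CD4+YFP+ cells sorted from mice of C57BL/6 background, with 3 arrays in each of 2 groups. Both groups carry Foxp3cre, which expresses the Cre recombinase from the Foxp3 locus, so deletion of a floxed gene is limited to cells that have expressed Foxp3. The control arrays, titled B6_WT, have the genotype Foxp3cre alone. The other arrays are titled USP7 and the series text names fl-Usp7/Foxp3cre, a deletion of the deubiquitinase Usp7, whereas their genotype field names floxed HDAC11 with Foxp3cre; they are called USP7-titled here. Age, sex and the number of animals behind each sample are not in the labels, and the text speaks only of independent samples, so each p-value refers to the variation among these 6 samples, which may be technical.

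Of the genes that the labels name, Usp7 was lower in all USP7-titled arrays and Hdac11 differed less. On the log2 scale of the deposited values, Usp7 read 11.69, 11.73 and 11.61 in the control arrays and 10.54, 10.69 and 10.76 in the USP7-titled arrays by its brightest probe set (change -1.01, limma adjusted p = 2.04e-06). Hdac11 fell by 0.58 by its brightest probe set (limma adjusted p = 0.0190), and its other probe set changed by -0.22 (limma adjusted p = 0.354). Both were dim already in the control arrays, with means of 6.38 and 4.04 beside array medians of 7.91 to 7.96. Low signals compress changes, so the sizes of the Hdac11 and Usp7 changes cannot be compared. The Hdac11 call was lost without control array 1 (-0.44, limma adjusted p = 0.0878), without USP7-titled array 2 (-0.50, 0.0645), with arrays scaled to their spiked-in hybridization controls (spike scaling; -0.42, 0.0539) and with the mean of its probe sets (-0.40, 0.0583). Foxp3 itself, the defining gene of the sorted cell type, fell from 12.82, 13.13 and 12.99 to 6.85, 7.29 and 6.87. The USP7-titled arrays therefore go against their Treg label at Foxp3, while Cd4 was at 12.82 and 12.83 in the group means and Il2ra, an interleukin receptor chain high on Treg, fell by only 0.17. With spike scaling Il2ra stood at -0.02 and did not pass (limma adjusted p = 0.858). Of 8 Treg and T cell markers 6 were lower and 0 higher in the deposited values, beside 15.6% and 16.9% of all genes. The count was 3 lower without control array 2, USP7-titled array 2 or USP7-titled array 3 and with median centring, 4 without control array 1, and with spike scaling 2 were lower and 1 higher. Xist, the RNA of the inactive X chromosome, went from a mean of 12.50 to 5.30, and the Y-linked gene Eif2s3y from 4.5 to 10.15. Sex and group therefore cannot be told apart, and because these features are shared by all 3 USP7-titled arrays no value can be given without them.

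RNA of 5 of the 9 cycle genes rose in the USP7-titled arrays and that of 0 fell. The subunit Idh3a and the NADP-linked Idh2 rose most, by 1.80-fold and 1.74-fold. Ogdh and Cs rose by 1.27-fold and 1.25-fold, and Mdh2 by 1.13-fold. Idh3g, Dlst, Suclg1 and Mdh1 did not pass the test. A call means a limma adjusted p under 0.05 over all probe sets, and each gene is counted by its probe set with the highest mean. By the same rule 16.9% of all genes were higher and 15.6% were lower. At the level of probe sets 9 of 19 were higher and 0 lower, beside 16.2% of all probe sets called higher. The groups did not overlap, with every USP7-titled array above every control array, in 6 of the 9 genes beside 20.9% of all genes, and in 14 of the 19 probe sets beside 20.1% of all probe sets. The median change of the 9 genes was 0.24 on the log2 scale, beside -0.05 over all genes. The list was chosen with earlier results of these data known, so its counts, and the lack of a fall, describe the list and test nothing. Of 9 other measured genes of the cycle 4 rose and 1 fell, and 6 had a change above 0.

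All 9 genes are expressed above the median gene, and their probe sets varied little between arrays of a group. The median residual SD was 0.0760 for the members' probe sets and 0.141 for all probe sets. The smallest change that passed, in Mdh2, was 1.13-fold. When the dimmest 40% of probe sets were left out, all 9 genes stayed in, 5 of them were higher, and so were 26.0% of all genes. The rank of the members among all genes ran from Mdh1, where 64.3% of genes had a smaller change, to Idh3a, where 95.9% did.

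**Figure D1:**
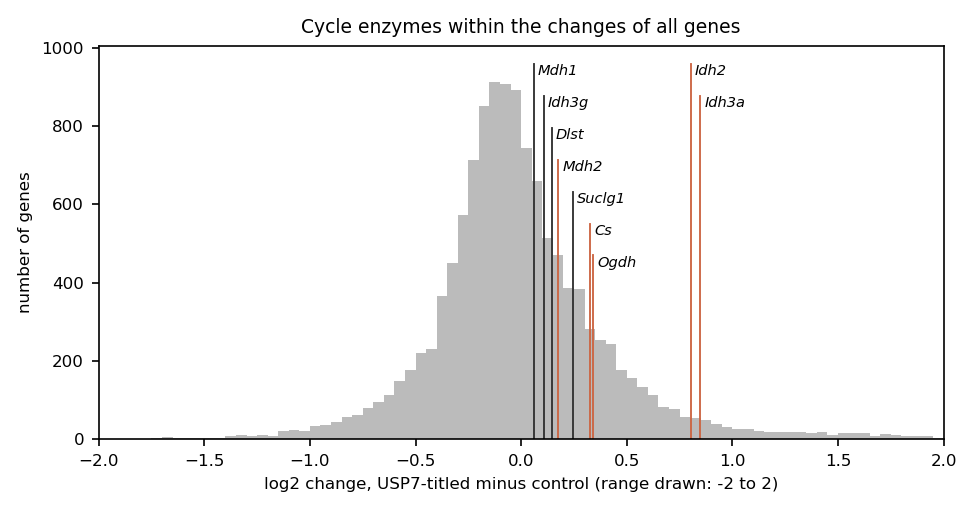
Histogram of log2 changes (USP7-titled minus control, x axis) of all genes by their brightest probe set (y axis, number of genes), with a line for each of the 9 cycle genes. The lines run from 0.06 (Mdh1) to 0.85 (Idh3a), all to the right of the median gene at -0.05.

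The sequences before the transcription starts of 3 members are shown because these genes differ in response (Idh2 rose strongly, Ogdh rose modestly and Idh3g did not pass) and in the short motifs found there. Each line gives the 250 bases before a RefSeq start site (build GRCm38.p6), read 5′ to 3′ on the strand of the gene. Capitals mark matches to one of 6 motifs searched on both strands.
Idh2, chr7:80115351-80115600, minus strand: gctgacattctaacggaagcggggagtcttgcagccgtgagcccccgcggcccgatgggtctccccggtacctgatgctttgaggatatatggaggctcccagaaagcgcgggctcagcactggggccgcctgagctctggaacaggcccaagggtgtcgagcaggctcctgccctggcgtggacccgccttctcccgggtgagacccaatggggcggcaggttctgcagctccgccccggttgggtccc
Idh3g, chrX:73786898-73787147, minus strand: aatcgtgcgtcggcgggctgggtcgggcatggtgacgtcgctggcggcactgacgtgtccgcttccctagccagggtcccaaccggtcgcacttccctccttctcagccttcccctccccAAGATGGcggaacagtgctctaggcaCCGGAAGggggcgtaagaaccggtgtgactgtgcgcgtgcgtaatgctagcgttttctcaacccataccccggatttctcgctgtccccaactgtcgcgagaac
Ogdh, chr11:6292308-6292557, plus strand, the start of one of its transcripts: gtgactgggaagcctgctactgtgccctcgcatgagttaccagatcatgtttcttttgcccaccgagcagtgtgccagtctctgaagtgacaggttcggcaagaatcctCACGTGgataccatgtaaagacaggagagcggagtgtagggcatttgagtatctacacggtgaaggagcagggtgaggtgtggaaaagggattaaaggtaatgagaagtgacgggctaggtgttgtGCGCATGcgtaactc

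The motifs were a core site of NRF1 (GCGCATG), a site of estrogen-related receptors (AAGGTCA), an ETS site (CCGGAAG), an E-box (CACGTG), an E2F site (TTCCCGC) and the core of YY1 (AAGATGG). They belong to families of factors known to act at genes of mitochondria or of the cell cycle. RefSeq windows were at hand for 8 of the 9 members, Idh3a being the exception, and gave 13 windows. The Idh2 window held none of the 6. Counted from the start, the Idh3g window held an ETS site at -104 and a YY1 core at -130. The Ogdh window shown held an NRF1 site at -15 and an E-box at -141. Of the 6 Ogdh windows 3 held an E-box and 2 an NRF1 site, with overlapping windows sharing matches. The windows of Cs, Dlst, Suclg1, Mdh1 and Mdh2 held none. Among 32851 windows of the same length, the share with a match was 3.24% for NRF1, 4.08% for the receptor site, 6.91% for ETS, 6.02% for the E-box, 3.82% for E2F and 4.49% for YY1. A match is a string of letters in a window and not a measured binding site. Among the called members with a window, Idh2, Cs and Mdh2 held no match and Ogdh did.

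Cs encodes citrate synthase, which joins acetyl-CoA to oxaloacetate and so admits carbon to the ring. Its brightest probe set read 11.51, 11.54 and 11.66 in the control arrays and 11.87, 11.88 and 11.94 in the USP7-titled arrays. All 3 USP7-titled values lay above all control values. The mean went from 11.57 ± 0.08 to 11.90 ± 0.04 (SD over 3 arrays per group), a rise of 0.33 (SE 0.05, 95% interval 0.21 to 0.44, limma adjusted p = 0.000862). The second probe set rose by 0.38 (limma adjusted p = 0.000665), with controls from 10.62 to 10.69 and USP7-titled arrays from 11.00 to 11.06. The third gave 0.20 without overlap and did not pass (limma adjusted p = 0.0573), though it did when control array 1 was left out (0.24, limma adjusted p = 0.0495). The probe sets of Cs thus shared a direction, and 2 of 3 passed.

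Isocitrate is oxidised in mitochondria by the NAD-linked enzyme, built of Idh3a, Idh3b and Idh3g, and by the separate NADP-linked enzyme Idh2. Idh3a encodes the catalytic subunit of the first. Its brightest probe set read 9.76, 9.68 and 9.75 in the control arrays and 10.50, 10.69 and 10.54 in the USP7-titled arrays. No USP7-titled value came near a control value. The mean went from 9.73 ± 0.04 to 10.58 ± 0.10 (SD over 3 arrays per group), a rise of 0.85 (SE 0.08, 95% interval 0.67 to 1.03, limma adjusted p = 2.25e-05). The other 2 probe sets rose by 0.77 (SE 0.14) and 0.68 (SE 0.13), with limma adjusted p = 0.00184 and 0.00233, and their groups did not overlap either. Idh3a was thus called by every one of its probe sets.

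Idh3g encodes a regulatory subunit of the same enzyme and lies on the X chromosome. Its brightest probe set read 11.76, 11.77 and 11.85 in the control arrays and 11.88, 11.90 and 11.91 in the USP7-titled arrays. The groups did not overlap, but the gap between the highest control and the lowest USP7-titled array was small. The difference was 0.11 (SE 0.05, 95% interval 0.01 to 0.21, limma adjusted p = 0.0959). It passed without control array 3 (0.13, limma adjusted p = 0.0452). The second probe set differed by 0.15 (limma adjusted p = 0.0678), with controls from 11.43 to 11.47 and USP7-titled arrays from 11.51 to 11.69, and passed without USP7-titled array 2 (0.19, limma adjusted p = 0.0366). Idh3b, the third subunit and not a member here, read 11.51, 11.51 and 11.61 in the control arrays and 11.27, 11.52 and 11.55 in the USP7-titled arrays, a difference of -0.10 with overlap (limma adjusted p = 0.364), which ran from -0.15 to -0.0069 with 1 array left out at a time.

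Idh2 makes mitochondrial NADPH as it oxidises isocitrate. Its only probe set read 8.60, 8.69 and 8.62 in the control arrays and 9.33, 9.45 and 9.54 in the USP7-titled arrays. The groups lay far apart relative to the spread within them. The mean went from 8.64 ± 0.05 to 9.44 ± 0.10 (SD over 3 arrays per group), a rise of 0.80 (SE 0.10, 95% interval 0.58 to 1.02, limma adjusted p = 0.000149).

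**Figure D2:**
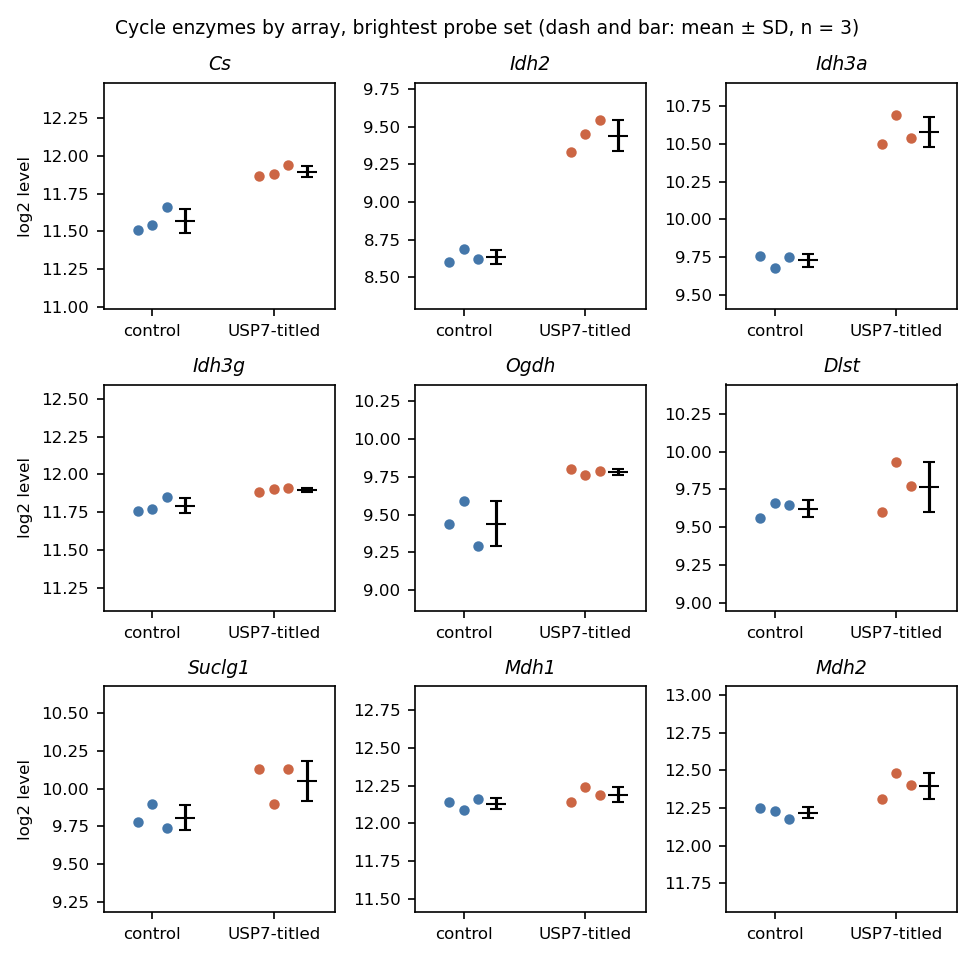
Deposited log2 values of each of the 9 cycle genes by its brightest probe set (y axis, a window of 1.5 log2 units per panel) in the 3 control and the 3 USP7-titled arrays (x axis); points are arrays, dash and bar the mean ± SD. Idh3a and Idh2 are separated widest, and Dlst, Suclg1 and Mdh1 overlap between groups.

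The alpha-ketoglutarate dehydrogenase complex, which follows in the ring, is built of Ogdh, the decarboxylase, Dlst, the succinyltransferase core, and Dld, a subunit shared with pyruvate dehydrogenase. The only probe set of Ogdh read 9.44, 9.59 and 9.29 in the control arrays and 9.80, 9.76 and 9.79 in the USP7-titled arrays. The groups did not overlap, and the controls spread more widely than the USP7-titled arrays. The mean went from 9.44 ± 0.15 to 9.78 ± 0.02 (SD over 3 arrays per group), a rise of 0.34 (SE 0.10, 95% interval 0.12 to 0.56, limma adjusted p = 0.0209). The call was lost without control array 1 (0.34, limma adjusted p = 0.0607), control array 3 (0.27, limma adjusted p = 0.0697) or USP7-titled array 3 (0.34, limma adjusted p = 0.0516).

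Dlst gave no call by either probe set. Its brightest read 9.56, 9.66 and 9.65 in the control arrays and 9.60, 9.93 and 9.77 in the USP7-titled arrays. USP7-titled array 1 lay below 2 of the controls. The difference was 0.14 (SE 0.10, 95% interval -0.08 to 0.37, limma adjusted p = 0.312), and it was 0.06 without USP7-titled array 2 and 0.23 without USP7-titled array 1. The dimmer probe set differed by 0.07 (SE 0.14, limma adjusted p = 0.752). Dld, which is not a member, rose by 0.45 (SE 0.12, limma adjusted p = 0.0165), from 8.61, 8.39 and 8.46 to 8.75, 9.11 and 8.95. Its call was lost in 2 of the 6 fits with an array left out, those without control array 2 (limma adjusted p = 0.0668) and without USP7-titled array 2 (limma adjusted p = 0.0644).

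Suclg1 encodes the alpha subunit of succinyl-CoA synthetase, the step of the ring that makes ATP or GTP directly. It read 9.78, 9.90 and 9.74 in the control arrays and 10.13, 9.90 and 10.13 in the USP7-titled arrays. USP7-titled array 2 lay within the range of the controls and the other two lay above it. The difference was 0.24 (SE 0.09, 95% interval 0.04 to 0.45, limma adjusted p = 0.0704, exact permutation p = 0.2, 2-sided, where 0.1 is the smallest possible with 3 against 3 arrays). Without USP7-titled array 2 it was 0.32 and passed (limma adjusted p = 0.0311). Its partners in the enzyme, the ATP-forming Sucla2 and the GTP-forming Suclg2, did not pass either, at 0.14 (limma adjusted p = 0.234) and -0.47 (limma adjusted p = 0.157). Suclg2 read 8.35, 8.03 and 8.52 in the control arrays and 8.45, 7.52 and 7.51 in the USP7-titled arrays, and without USP7-titled array 1 it was lower by the test (-0.79, limma adjusted p = 0.00509).

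Malate dehydrogenase closes the ring in mitochondria (Mdh2) and works in the cytosol in the malate-aspartate shuttle, which carries electrons of NADH into mitochondria (Mdh1). The brightest probe set of Mdh2 read 12.25, 12.23 and 12.18 in the control arrays and 12.31, 12.48 and 12.40 in the USP7-titled arrays. The groups did not overlap. The mean went from 12.22 ± 0.03 to 12.39 ± 0.08 (SD over 3 arrays per group), a rise of 0.17 (SE 0.05, 95% interval 0.07 to 0.28, limma adjusted p = 0.0154). The call was lost without USP7-titled array 2 (0.13, limma adjusted p = 0.0719), with quantile normalization (0.12, limma adjusted p = 0.0732) and without limma's mean-variance trend (limma adjusted p = 0.156). The second probe set rose by 0.34 (SE 0.05, limma adjusted p = 0.000411), from 12.01, 11.90 and 12.02 to 12.25, 12.32 and 12.38, and kept its call without each array in turn.

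Mdh1 was not called by any of its 4 probe sets. The brightest read 12.14, 12.09 and 12.16 in the control arrays and 12.14, 12.24 and 12.19 in the USP7-titled arrays, which overlap. The difference was 0.06 (SE 0.04, 95% interval -0.04 to 0.15, limma adjusted p = 0.335), and it ran from 0.03 to 0.09 with 1 array left out at a time. It lay at -0.0027 with quantile normalization and at -0.0047 when the probe sets of a gene were averaged. The next 2 probe sets differed by 0.09 and 0.14 (limma adjusted p = 0.124 and 0.118), and the dimmest by -0.30 (SE 0.15, limma adjusted p = 0.166). The 2 brightest are of the kind marked x, whose probes can also match other transcripts. The brightest probe sets of Sdhc, Sdhd, Hadh, Tmem109 and Cox5b, described below, are of the same kind. The dimmest Mdh1 probe set was the only one of the 19 with a change below 0.

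**Figure D3:**
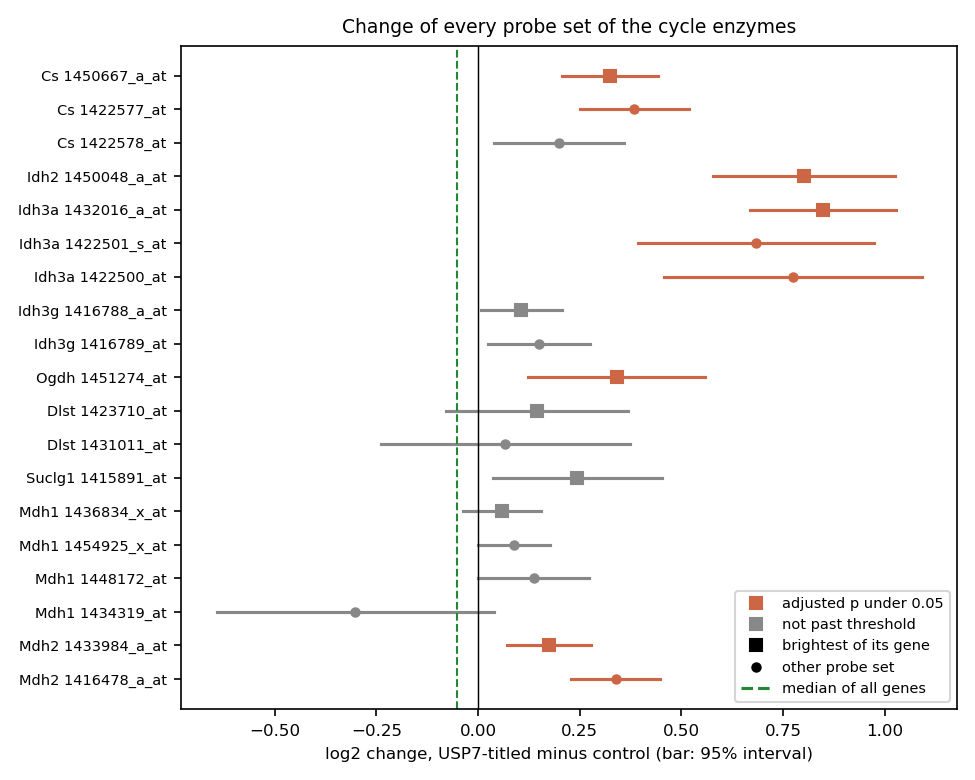
Log2 change (USP7-titled minus control, x axis) of all 19 probe sets of the 9 genes (y axis), with 95% intervals from limma; colour marks the 9 called higher. The 3 Idh3a probe sets and Idh2 sit between 0.68 and 0.85, and the one value left of 0 is the dimmest Mdh1 probe set at -0.30.

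The members changed unequally. Ratios within an array are not moved by a constant shift of that array, though they can move with quantile normalization, and these pairs were examined after the values had been seen. Over the 36 pairs of members, the log2 ratio did not overlap between groups in 19, each with the smallest exact permutation p possible (p = 0.1, 2-sided, 0.189 after Benjamini-Hochberg adjustment over the 36), so none could pass. Idh3a minus Idh3g, subunits of one enzyme, was -2.0, -2.09 and -2.10 in the control arrays and -1.38, -1.21 and -1.37 in the USP7-titled arrays, a difference of 0.74. Idh3a minus Cs differed by 0.52 and Idh3a minus Mdh1 by 0.79, both without overlap. Idh3a minus Idh2 differed by 0.05 with overlap (exact permutation p = 0.5), and Ogdh minus Cs by 0.02 with overlap (exact permutation p = 0.9). Mdh2 minus Mdh1 differed by 0.11 without overlap (exact permutation p = 0.1).

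Of 8 pairs of subunits of one enzyme, including partners that are not members, 4 did not overlap, each at exact permutation p = 0.1 (0.2 adjusted over the 8). Here too the share among pairs of other genes was not counted. Idh3a minus Idh3b differed by 0.95, from -1.76, -1.83 and -1.85 to -0.77, -0.83 and -1.01. Idh3g minus Idh3b differed by 0.20 and Dld minus Dlst by 0.31. Ogdh minus Dlst differed by 0.20, Dld minus Ogdh by 0.11, Suclg1 minus Sucla2 by 0.11 and Suclg1 minus Suclg2 by 0.72, and all of these overlapped. The ratio of the catalytic subunit of the NAD-linked enzyme to each of its partners was higher in every USP7-titled array than in any control array.

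Of 11 other genes of the cycle, 9 were measured by a probe set with a single symbol. Of these 4 rose and 1 fell, beside 16.9% higher and 15.6% lower of all genes. The other 4 did not pass, and the median change was 0.37, or 0.18 without control array 3. Fumarase Fh1, which hydrates fumarate to malate, rose by 0.92 (SE 0.14, limma adjusted p = 0.000438), from 9.56, 9.20 and 9.79 to 10.35, 10.40 and 10.57. In succinate dehydrogenase, the enzyme shared by the ring and the respiratory chain, the iron-sulfur subunit Sdhb rose by 0.64 (limma adjusted p = 0.000254) and the membrane anchor Sdhd by 0.37 (limma adjusted p = 0.00226). The other anchor, Sdhc, differed by 0.41 by its brightest probe set (limma adjusted p = 0.0681), while its second probe set rose by 0.53. The brightest Sdhc probe set read 10.58, 10.65 and 9.92 in the control arrays and 10.83, 10.75 and 10.81 in the USP7-titled arrays, so control array 3 stood apart. Its difference was 0.18 without control array 3 (limma adjusted p = 0.0860) and passed without control array 2 (0.55, 0.0313), with the replicate number as a block (0.0392) and with spike scaling (0.57, 0.00920). The flavoprotein subunit Sdha went the other way and fell by 0.22 (limma adjusted p = 0.0190), with its second probe set lower by 0.33. The Sdha call was lost without control array 1 (limma adjusted p = 0.0730), control array 2 (0.0829) or USP7-titled array 3 (0.0669), and with arrays scaled to the spikes its change was -0.06 (limma adjusted p = 0.608). The fourth gene that rose was Dld, described above with its complex.

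Genes that feed the ring were counted by route, and the routes were not tested against each other. Beside each count here and in the next paragraphs stand 16.9% higher and 15.6% lower of all genes. With the dimmest 40% of probe sets left out, 26.0% of all genes were higher. All 14 genes of the fatty acid list lay above the median gene in the control arrays. Of 14 genes of fatty acid entry and oxidation, 10 rose and 1 fell, the other 3 did not pass, and the median change was 0.37. Among them Cpt1a, which commits fatty acids to mitochondria, rose by 0.89 (limma adjusted p = 3.35e-05), from 9.41, 9.16 and 9.26 to 10.18, 10.17 and 10.16. Hadh, a dehydrogenase of the oxidation spiral, rose by 0.998 (limma adjusted p = 7.95e-05), the acyl-CoA dehydrogenase Acadl by 0.76 by its brightest probe set (limma adjusted p = 0.000694) and the electron carrier subunit Etfb by 0.72 (limma adjusted p = 1.68e-05). The second Acadl probe set stood at -0.19 (limma adjusted p = 0.420), and the mean of both gave 0.29 and did not pass (0.123). The count of genes that rose was 6 without control array 2, USP7-titled array 2 or USP7-titled array 3, and the 1 that fell, Acadm (named after its values were seen), lost its call in 5 of the 6 fits with an array left out.

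Of 7 genes of pyruvate entry 5 were measured. The pyruvate carrier subunit Mpc1 rose by 0.47 (limma adjusted p = 0.00230). Pdha1, X-linked and a catalytic subunit of pyruvate dehydrogenase, fell by 0.22 (limma adjusted p = 0.0339). The other 3 did not pass, and the median was -0.05 (0.11 with spike scaling). With 5 genes measured, 1 in either direction is near the share of all genes, 16.9% higher and 15.6% lower. The Pdha1 call was lost in 4 of the 6 fits with an array left out, with limma adjusted p up to 0.131, and its second probe set stood at 0.05. Among the kinases and phosphatases that switch that enzyme, 4 of 7 were measured (median -0.38, and -0.21 without USP7-titled array 3). Pdk1 fell by 0.84 (limma adjusted p = 4.63e-05), from 10.51, 10.69 and 10.53 to 9.60, 9.82 and 9.78, and Pdk2 by 0.80 (limma adjusted p = 0.00516), whereas Pdk3, X-linked, rose by 0.82 (limma adjusted p = 0.000397). These kinases inhibit pyruvate dehydrogenase, and the 3 that changed did not share a direction.

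Of 13 genes of citrate export, cytosolic conversion and the malate-aspartate shuttle 11 were measured, and 7 rose, 0 fell and 4 did not pass (median 0.42). Got2, the mitochondrial aspartate aminotransferase of the shuttle, rose by 0.61 (limma adjusted p = 0.000158) and the dicarboxylate carrier Slc25a10 by 0.52 (limma adjusted p = 0.00588). The aspartate-glutamate carrier Slc25a13 rose by 0.69 (limma adjusted p = 0.0236) and the cytosolic aconitase Aco1 by 0.53 (limma adjusted p = 0.0424). The last pair lost their calls in 3 and 5 of the 6 fits with an array left out, with limma adjusted p up to 0.102 and 0.148. The count was 4 without control array 3. Mdh1, the cytosolic enzyme of the same shuttle, was not among the genes that rose.

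Of 8 genes of glutamine entry 6 were measured; 3 rose and 1 fell (median 0.21). Psat1, which makes alpha-ketoglutarate as it builds serine, rose by 1.06 (limma adjusted p = 1.57e-05) and the mitochondrial alanine aminotransferase Gpt2 by 0.81 (limma adjusted p = 0.00210). Glud1, glutamate dehydrogenase, rose by 0.19 (limma adjusted p = 0.0486), a call lost in 5 of the 6 fits with an array left out (limma adjusted p up to 0.144). The glutamine transporter Slc1a5 fell by 0.36 (limma adjusted p = 0.00811). With arrays scaled to the spikes its change was -0.20 and did not pass (limma adjusted p = 0.139).

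Of 8 genes of branched-chain amino acid and propionate entry 0 rose and 3 fell (median -0.03). The count that rose was 2 without USP7-titled array 1, with median centring, with the replicate number as a block and with spike scaling, and the median was 0.02 without control array 1 and 0.13 with spike scaling. Those that fell were Bckdhb, a subunit of the branched-chain keto acid dehydrogenase, which fell by 0.73 (limma adjusted p = 0.00268), the propionyl-CoA carboxylase subunit Pcca, which fell by 0.69 (limma adjusted p = 0.00513), and the aminotransferase Bcat2, which fell by 0.42 (limma adjusted p = 0.0148). The Bcat2 call was lost without control array 2 (-0.39, limma adjusted p = 0.0613) and with spike scaling (-0.26, 0.171). Of 7 measured genes of lipoyl and iron-sulfur cofactor or succinate dehydrogenase assembly 0 rose and 1 fell, Sdhaf1, an assembly factor of succinate dehydrogenase, by 0.35 (limma adjusted p = 0.00824). With spike scaling Sdhaf1 stood at -0.19 and did not pass (limma adjusted p = 0.125), and the median of the list was -0.05, or 0.01 without USP7-titled array 3 and 0.11 with spike scaling.

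Of 13 regulators of mitochondrial gene expression 1 rose, 2 fell and 10 did not pass. These counts do not stand above the share of all genes, 16.9% higher and 15.6% lower. The median of the regulators was -0.14, but 0.03 without USP7-titled array 1 and 0.02 with spike scaling. Myc, a factor known to drive metabolic genes, fell by 0.77 (limma adjusted p = 1.80e-06), from 12.20, 12.12 and 12.15 to 11.37, 11.47 and 11.32. Pprc1, a coactivator related to PGC-1, fell by 0.50 (limma adjusted p = 0.000645). Tfb1m, a methyltransferase of the mitochondrial ribosome, rose by 0.47 (limma adjusted p = 0.0134), but not without control array 1 (0.0597), and its second probe set stood at -0.15.

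**Figure D4:**
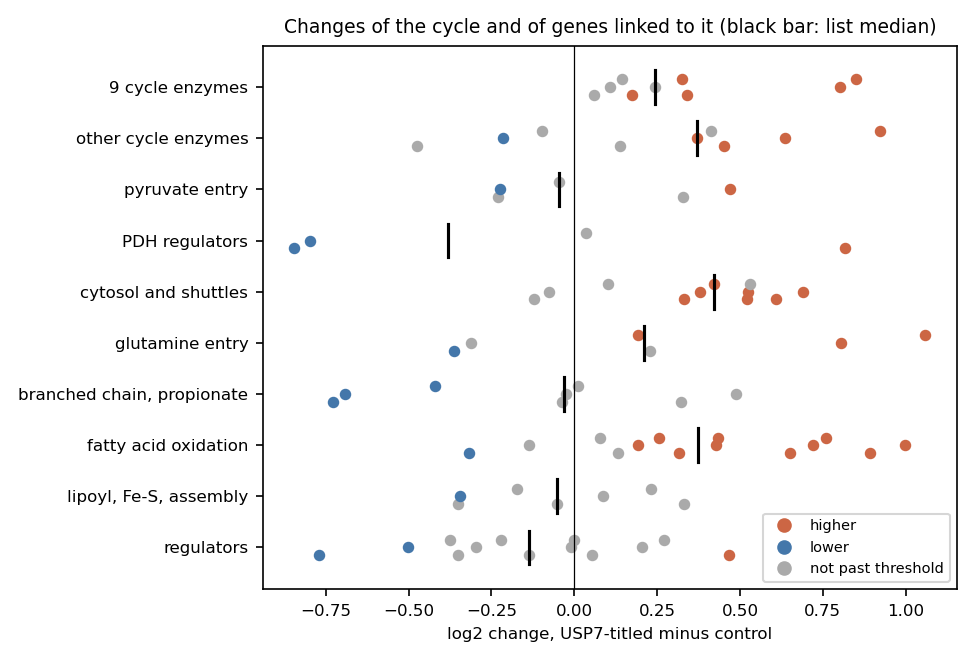
Log2 change (USP7-titled minus control, x axis) of every measured gene, by list (y axis), by brightest probe set; colour marks genes called higher or lower and grey those that did not pass. The cycle, fatty acid and shuttle lists lie mostly to the right of 0. The cell cycle genes, with a median of 3.09, are not drawn.

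Markers of proliferation and some markers of other cells moved with the group, and their part in the changes of the cycle genes was not tested. Over all genes 16.9% were higher and 15.6% lower. Of 10 cell cycle genes 9 were measured and all 9 rose, and the summed level of the list was 11.35 to 11.61 (log2) in the control arrays and 14.36 to 14.38 in the USP7-titled arrays. Of 12 myeloid markers 10 rose and 0 fell, with a summed level of 10.29 to 10.79 against 12.16 to 12.56, and 0 of the 12 lay above the median gene in the control arrays and 8 in the USP7-titled arrays. Of 9 markers of CD8 T and natural killer cells 3 rose, 1 fell and 5 did not pass, and the median change was 0.02. Their summed level was 11.79 to 11.82 against 13.64 to 13.73. That sum weighs the brightest genes most, here the cytotoxic genes Gzmb and Nkg7, at 12.64 and 12.24 in the USP7-titled means. These 2 genes changed by 3.29 and 2.76. B cell markers had 1 higher and 1 lower of 7 (10.36 to 10.43 against 10.30 to 10.39), dendritic cell markers 0 higher (2 with spike scaling) and 1 lower of 6 (9.27 to 9.38 against 9.04 to 9.14) and red cell markers 0 of either of 3 (8.07 to 8.22 against 7.72 to 8.11). The values carry no detection call, so no marker could be placed at 0. In such bulk RNA, fewer cells of a type and less RNA per cell cannot be told apart. The difference between 3′ and 5′ probe sets of Gapdh, a measure of RNA integrity, was 0.989 to 1.23 in the control arrays. In the USP7-titled arrays it was 0.907 to 0.986, so the groups did not overlap, by a narrow gap. That of actin was -0.286 to -0.151 against -0.180 to -0.155, with overlap. The part of RNA integrity was not tested either.

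The scale of the arrays bears on the size of each change. With arrays scaled to the 18 hybridization spike probe sets, the median over all genes moved from -0.05 to 0.11 and the median of the members was 0.40. Under that scaling 8 of the 9 genes (all but Dlst) rose, beside 23.7% of all genes. The share of higher among called genes was then 76.1%, beside 52.0% in the deposited values, so the members' extra calls came with a shift of all genes. The members' median stood 0.30 above the median gene in the deposited values, a distance that a constant shift of each array cannot change. With quantile normalization 4 of the 9 rose, beside 15.9% of all genes, with a median of 0.20 (0.22 above the median gene). Median centring gave 5, beside 17.4% of all genes, with a median of 0.25.

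**Figure D5:**
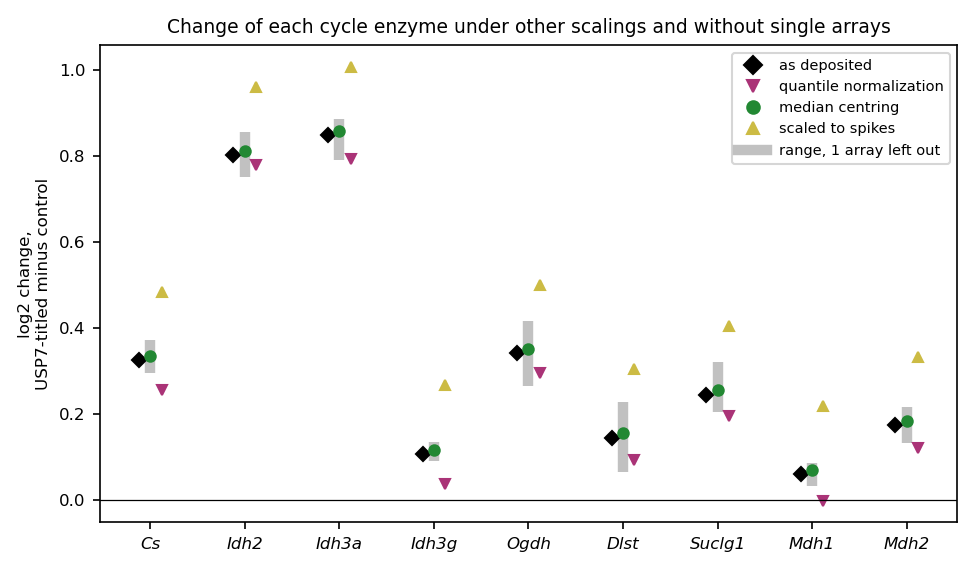
Log2 change (USP7-titled minus control, y axis) of the brightest probe set of each of the 9 genes (x axis) in the deposited values, with quantile normalization, with median centring and scaled to hybridization spikes. The order of the genes is kept under each scaling, and spike scaling moves all 9 up, to a median of 0.40.

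Among 6187 other genes above the median level, the centred profile over the 6 arrays was nearest to the mean profile of the 9 members for Cox6b1 (root mean square distance 0.0233, change 0.33), Tmem109 (0.0238, change 0.36), Sypl (0.0246, change 0.37), Rap1gds1 (0.0272, change 0.35) and Cox5b (0.0279, change 0.36). The median distance of all candidates was 0.223, and single members lay 0.0528 to 0.262 from their own mean profile. Cox6b1 and Cox5b encode subunits of cytochrome c oxidase, the terminal enzyme of the respiratory chain. The likeness is a description over 6 arrays of 2 groups and rests mostly on the difference between them.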

How the data were processed

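RNA of 6 samples, 100 ng of total RNA each per the labels, was amplified, labelled with biotin and hybridised to 1 array per sample. The authors deposited 1 value per probe set and array, on a scale read as log2 from its range. How they summarised and normalized the probes is not given in the sources used here. Array medians ran from 7.91 to 7.96, and no further normalization was applied. Forcing arrays to one distribution can hide a change of total RNA, and low signals compress changes.

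The 64 array controls among the 22690 probe sets took no part in the fit. GEO's platform annotation gave 20380 of the rest a single symbol, 691 several and 1555 none, and only the first named genes (20351 matched RefSeq, GRCm38.p6). The fit used limma 3.58.1 (lmFit, eBayes with trend; R 4.3.3), 2-sided, adjusted by Benjamini-Hochberg over 22626 probe sets, threshold 0.05. The precision is limited by 3 arrays per group. On simulated data (22626 probe sets, 200 changed) the fit recovered 0% of changes of 0.25, 20.9% of 0.5 and 69.7% of 1, with 1 false call. With as many true changes as these data may hold, the adjustment is less strict and the rates need not hold. Nor need they hold for the members, whose probe sets varied less (median residual SD 0.0760, beside 0.141 for all probe sets).

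Named were all members, Usp7, Hdac11, Foxp3, Xist, Eif2s3y, the other cycle genes, up to 4 called genes with the largest change per linked list, or 2 with the smallest p where none was called, the 2 brightest genes per marker list, and the 5 nearest profiles; of the last lists only those discussed are printed. The members and lists were chosen with earlier results of these data known. Promoter windows came from RefSeq. Alternatives covered normalization, filter, probe set choice, eBayes options, array weights, pairing, threshold, sex chromosomes and each array left out.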

Additional observations from a re-analysis of the deposited data

How the results depend on the processing

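Every alternative kept the number of the 9 cycle genes that fell at 0. Among the other measured genes of the cycle that number was 1 in the deposited values, 0 with spike scaling and 2 without USP7-titled array 1. With arrays scaled to the hybridization spikes, 16 probe sets and 8 genes of the cycle were higher, beside 23.7% of all genes, and the median was 0.40. At an adjusted p threshold of 0.01, 3 genes (Cs, Idh2 and Idh3a) were higher, beside 11.9% of all genes. With 1 array left out at a time, the cycle had 4 to 5 genes and 8 to 10 probe sets higher and a median of 0.21 to 0.32. The share of all genes higher in the same fits was 13.7% to 16.7%. The linked lists with the cell cycle list included had 29 to 36 genes higher there, beside 36 of 86. Without the cell cycle list, whose 9 measured genes were all higher in each of these fits, 20 to 27 were higher, beside 27 of 77. Of 321 comparisons of single probe sets of the cycle with an alternative, 293 kept their side of the threshold, 8 lost and 20 gained a call, and 0 called values changed sign. For the 59 other named genes, 978 of 1054 were kept, 56 lost and 20 gained. The causes were not tested.

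No pairing of the arrays by the replicate numbers in the titles was visible in the values. Deviations of same-numbered arrays correlated at 0.0690, -0.0507 and 0.0885, and control array 2 correlated best with USP7-titled array 1 (0.0888). Such weak correlations cannot show whether the samples were paired. With the number as a replicate block, 5 genes and 9 probe sets of the cycle and 37 linked genes (28 without the cell cycle list) were higher. The share of all genes higher was 16.7%, and the median of the cycle genes was 0.24. Among named genes of the linked lists the block added a call for Sdhc (limma adjusted p = 0.0392) and removed those of Pdha1 (0.0595) and Glud1 (0.0651). The lack of detection calls and the 3 arrays per group limit what small or dim changes can show.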
